A study of Mus musculus with 2 samples.

Results

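KLF6 belongs to the Krüppel-like transcription factors, which bind DNA through zinc fingers. Its sites were located by chromatin immunoprecipitation and sequencing (ChIP-seq) in HCC cells, a mouse line of hepatocellular carcinoma. The sites described here lie within the body of the gene to which the authors assigned them. A site was taken when its deposited label said that it was inside the gene or overlapped the gene's start or end, and when the gene's description did not come from RFAM or miRBase, the databases of small RNA genes. This gave 276 sites of 1643, of which 106 were among the 742 sites of experiment 1 (14.3%, 95% exact interval 11.8 to 17.0) and 170 were among the 901 sites of experiment 2 (18.9%, interval 16.4 to 21.6).

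There was 1 precipitated and 1 input sample, both from HCC cells grown in DMEM with serum and transfected with a plasmid that encodes full-length KLF6 with a V5 tag. The precipitated sample was taken with an antibody against V5, so the sites are those of a tagged protein that was added to the cells. The input sample is DNA of such cells without precipitation, and no cells without the tagged protein were analysed here. The deposited lists come from 2 experiments, with 2 sequencing runs merged for experiment 1, and each sets precipitated DNA against input. The lists hold no expression values, so the labelled cell type could not be checked by markers. No source used here states the libraries' read totals, so the depth is unknown and a site that is missing from a list cannot be set against a limit of detection.

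As background, KLF6 is widely expressed, is induced early after tissue injury and has been studied as a growth suppressor in the liver. Factors of the KLF and SP families bind GC boxes and CACCC elements, and many known sites lie in promoters near gene starts. The body of a gene, from its start to its end, is mostly intron in long genes, and enhancers can lie there. Exon positions of build mm9 were not used here, so the sites were not placed on exons, introns or UTRs.

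Most of these sites were labelled as inside their genes and few overlapped a start. In experiment 1, 99 sites carried the label inside, 6 overlapped a gene start and 1 overlapped a gene end. In experiment 2 these counts were 166, 3 and 1. Of the sites labelled inside, 1 in each list also reached across a gene start by its interval, at Klf6 in experiment 1 and at ENSMUSG00000075015 in experiment 2. In each list a further 3 sites touched a gene by their interval but were labelled upstream and were not taken. Small RNA genes accounted for 4 left-out sites in experiment 1 and 1 in experiment 2.

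Where a site covers a gene start, the sequence before that start can be shown. The genome of the lists' build was not used here, so the sites' own sequence is not printed. Of the 11 sites over a start, 5 belonged to a gene with an entry in the RefSeq table of promoters, build GRCm38.p6. The 250 bases before the RefSeq start are given 5′ to 3′ on the gene's strand, with capitals for a GC box (GGGCGG, or CCGCCC on the other strand) or a CACCC element (CACCC, or GGGTG on the other strand). A GGGTG can share bases with a GC box before it. These windows are shown because a gene-body site covers the start they lead to, and the RefSeq start need not be the start in the deposited lists.
Klf6: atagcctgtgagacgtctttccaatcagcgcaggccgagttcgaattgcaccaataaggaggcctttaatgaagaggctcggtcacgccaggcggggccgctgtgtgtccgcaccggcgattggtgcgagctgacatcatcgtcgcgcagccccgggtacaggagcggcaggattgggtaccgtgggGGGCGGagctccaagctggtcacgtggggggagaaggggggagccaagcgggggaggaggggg
Hist1h4a: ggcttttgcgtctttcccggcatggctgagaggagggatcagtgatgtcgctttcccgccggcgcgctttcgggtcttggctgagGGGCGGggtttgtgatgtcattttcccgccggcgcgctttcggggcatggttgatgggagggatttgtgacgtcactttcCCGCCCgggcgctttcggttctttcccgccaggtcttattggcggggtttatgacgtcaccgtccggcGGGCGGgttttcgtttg
Ndufs7: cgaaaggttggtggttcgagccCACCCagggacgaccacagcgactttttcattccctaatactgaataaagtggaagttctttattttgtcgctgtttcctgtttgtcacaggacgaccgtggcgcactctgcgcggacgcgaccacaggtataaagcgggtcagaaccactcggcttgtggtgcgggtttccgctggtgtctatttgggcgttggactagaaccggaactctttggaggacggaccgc
Sacm1l: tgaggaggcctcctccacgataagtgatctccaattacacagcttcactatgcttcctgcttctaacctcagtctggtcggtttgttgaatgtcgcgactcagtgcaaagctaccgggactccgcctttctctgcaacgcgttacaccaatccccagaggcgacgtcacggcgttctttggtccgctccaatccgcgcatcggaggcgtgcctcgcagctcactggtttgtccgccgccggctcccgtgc
Olfr792: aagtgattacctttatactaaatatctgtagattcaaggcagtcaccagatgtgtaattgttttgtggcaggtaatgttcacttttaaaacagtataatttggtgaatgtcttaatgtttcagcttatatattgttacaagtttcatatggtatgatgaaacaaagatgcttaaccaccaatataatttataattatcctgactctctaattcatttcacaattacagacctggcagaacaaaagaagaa

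In these 250 bases the window of Klf6 held 1 GC box and that of Hist1h4a, a histone H4 gene, held 3. Ndufs7, which encodes a subunit of respiratory complex I, held 1 CACCC element. Neither motif was found before the start of Sacm1l, a phosphoinositide phosphatase gene, or of Olfr792, an olfactory receptor gene. Of all 32851 promoter windows of this length, 32.7% held a GC box and 52.0% held a CACCC element on either strand. The GC content was 64.8% at Klf6, 61.6% at Hist1h4a, 58.4% at Sacm1l, 54.4% at Ndufs7 and 30.4% at Olfr792, against a median of 52.4% over all windows. Including the 50 bases after the start, Ndufs7 held 2 CACCC elements and Hist1h4a and Sacm1l held 1 each. A match of letters describes the window and is no measure of binding.

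The sites over these 5 starts were found in experiment 1 alone. At Ndufs7 the site ran from 335 bp before to 299 bp after the start (chromosome 10 from 79711531 to 79712165, mm9), with 29 tags and a fold enrichment of 8.06. At Sacm1l it ran from 605 bp before to 9 bp after the start (chromosome 9 from 123438295 to 123438909), with 29 tags and 9.62-fold. At Hist1h4a, named here from its description, it ran from 100 bp before to 299 bp after the start (chromosome 13 from 23852800 to 23853199), with 30 tags, 13.9-fold and a false discovery rate (FDR) of 18.2%. At Olfr792 the site had 20 tags at 6.66-fold. The FDR is the peak caller's estimate in percent, and it was 100%, its highest value, at Ndufs7, Sacm1l and Olfr792. A site over the start of Hist2h4, another histone H4 gene, had 28 tags at 8.20-fold, also with an FDR of 100%.

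The site at a gene start that was found in both experiments was at ENSMUSG00000064635, a feature of 98 bp on chromosome 13 without a description (9.22-fold in experiment 1 and 15.9-fold in experiment 2). The site that overlapped a gene end was at ENSMUSG00000083583, a feature of 410 bp on chromosome 11 without a description. It too was found in both experiments (22.6-fold and 12.6-fold). Small RNA genes were left out by their description, so the rule could not judge features without one.

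The 3 sites in Klf6 carried far more tags than the other gene-body sites of experiment 1. The site in the middle of the gene (chromosome 13 from 5863651 to 5864920) had 583 tags at 3.94-fold, the site over the start (5860546 to 5861201) had 194 tags at 6.01-fold, and another (5865504 to 5866305) had 137 tags at 7.83-fold. Every other gene-body site of experiment 1 had 100 tags or fewer, and the median over all 106 was 27. Tags divided by fold and width came to 117, 49.3 and 21.8 per kb at these sites, and the median over gene-body sites was 5.25. This quotient only relates tags to fold and is not a measured background. By fold, the site with 583 tags ranked 729 and the site with 194 tags ranked 534 among the 742 sites. Experiment 2 had no site in Klf6. The cells carried a KLF6 plasmid, and whether its DNA contributed tags to these sites was not tested.

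In experiment 2 the tags gathered at 3 other features, none of which has a description. ENSMUSG00000075014 (chromosome 2 from 98506334 to 98507516) had 1221 tags at 1.89-fold, the lowest fold of the list, ENSMUSG00000075015, on the same chromosome (98502356 to 98503202), had 933 tags at 2.24-fold, and ENSMUSG00000074566 (chromosome 9 from 2999935 to 3001512) had 500 tags at 4.45-fold. They were the 3 sites with the most tags of all 901, and the next gene-body site had 37. All 3 reached over the start of a short feature of 0.754, 1.85 and 1.26 kb, and none had a counterpart in experiment 1. Tags divided by fold and width came to 547 per kb at ENSMUSG00000075014 and 492 at ENSMUSG00000075015. The median over gene-body sites of experiment 2 was 3.82, and as at Klf6 the quotient is not a measured background. No source used here states how reads from repeated sequence were placed. The plot of tags against fold shows these 3 sites and those of Klf6 at the lower right. They lie apart from the gene-body sites above 30-fold, which had 30 to 91 tags.

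**Figure D1:**
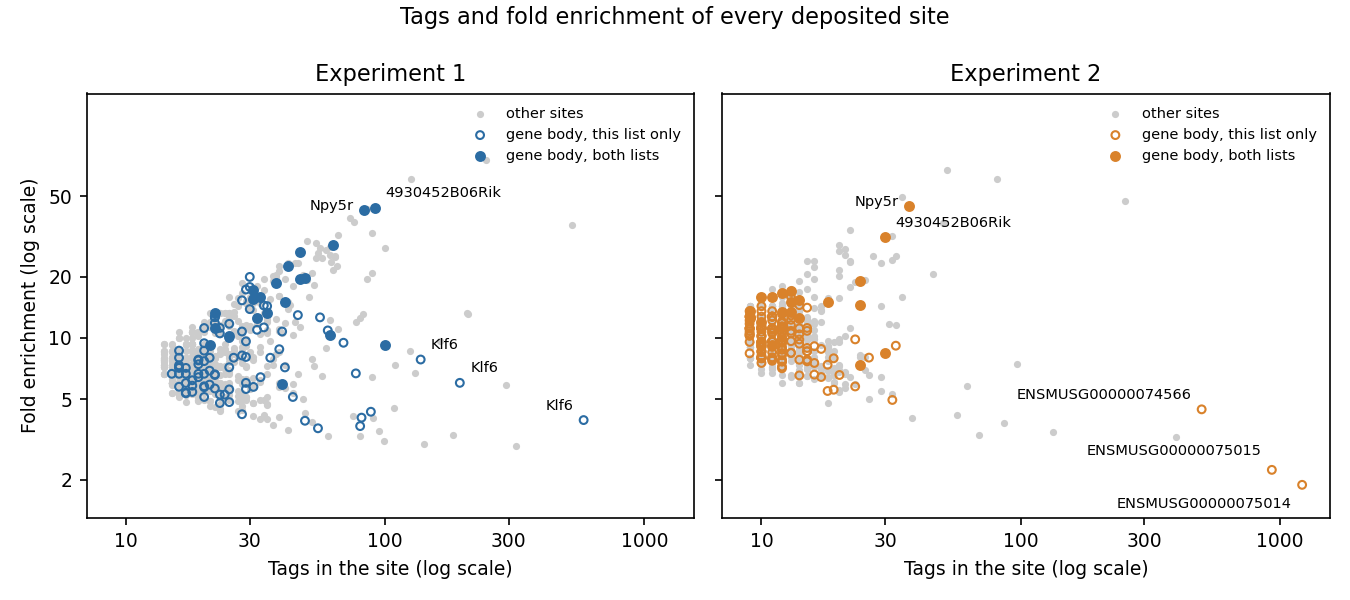
Tags (x axis, log scale) and the peak caller's fold enrichment (y axis, log scale) of every deposited site, with experiment 1 on the left and experiment 2 on the right. Grey points are sites outside gene bodies or at small RNA genes, open circles are gene-body sites found in that list alone, and filled circles are gene-body sites found in both lists; Klf6 (583, 194 and 137 tags) and 3 features of experiment 2 (1221, 933 and 500 tags) lie to the right at low fold.

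The comparison of the 2 experiments asked which gene-body sites were found again. By an overlap of at least 1 bp, 21 sites of experiment 1 (19.8% of 106, interval 12.7 to 28.7) met 21 sites of experiment 2 (12.4% of 170, interval 7.81 to 18.3). Over all sites of the lists the shares were 14.7% and 12.4%, and over the sites outside gene bodies or at small RNA genes they were 88 of 636 (13.8%, interval 11.2 to 16.8) and 91 of 731 (12.4%, interval 10.1 to 15.1). The intervals overlapped in both experiments. No test was made, because sites of 1 list are not replicates.

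The 21 pairs matched closely in place. Their summits lay a median of 13 bp apart, 17 pairs were within 30 bp and the widest gap was 75 bp, at Npas3. In 18 pairs the site of experiment 2 lay wholly within that of experiment 1, whose sites were wider (median 723 bp against 296 bp). All 21 pairs were assigned to the same gene, and each had more tags in experiment 1, with a median ratio of 2.78. Without read totals this ratio cannot be set against depth.

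By mean rank of fold the pairs in 4930452B06Rik and Npy5r tied for the first place among gene-body pairs. The pair in 4930452B06Rik lay 59.7 kb from the start of a gene of 235 kb, with a fold of 43.7 (91 tags) in experiment 1 and of 31.3 (30 tags) in experiment 2. The pair in Npy5r, a receptor for neuropeptide Y that takes part in the control of feeding, lay 1.48 kb from the start of a gene of 8.13 kb, with folds of 42.5 (83 tags) and 44.5 (37 tags). No other gene-body site reached 30-fold in either list. In experiments 1 and 2 the FDR was 12.5% and 22.7% at 4930452B06Rik and 11.1% and 66.7% at Npy5r. Neither pair thus had an FDR of 5% or lower in either list. The FDR did not always fall as the deposited score rose, a score that is higher where the peak caller's p-value is lower. In experiment 1 the scores were 556.7 at 4930452B06Rik and 537.88 at Npy5r. Npas3 and Heatr7b2 had lower scores (172.1 and 171.22) and lower FDRs (1.56% and 1.54%), while Itga9 (113.74) had 47.93%. In experiment 2 Npy5r had the higher score (273.81 against 156.03) and the higher FDR. Neither pair is thus marked as weaker by its FDR alone.

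Several pairs followed between 15-fold and 30-fold. In ENSMUSG00000074778, a gene of 109 kb without a description, the site on chromosome 13 (92813610 to 92814087) had 19.6-fold and 19.1-fold. In Rftn1, which encodes the lipid raft protein raftlin, the site on chromosome 17 (50200927 to 50201675) had 26.6-fold and 15.3-fold. In Adcy1, a calcium-stimulated adenylate cyclase gene, the site on chromosome 11 (7005941 to 7006801) had 28.6-fold and 15.1-fold. Among gene-body sites alone, Rftn1 and Adcy1 were thus among the 5 highest folds of experiment 1 and not among those of experiment 2.

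Serpinf1, which encodes pigment epithelium-derived factor, a secreted inhibitor of angiogenesis, had a site on chromosome 11 (75231846 to 75232695) at 18.7-fold and 16.6-fold. Slc9a9, a sodium and proton exchanger of endosomes, had a site in the middle of a gene of 560 kb on chromosome 9 (94829261 to 94829983) at 16.0-fold and 15.9-fold. Dnahc9, an axonemal dynein heavy chain gene, had 13.3-fold and 17.0-fold. Itga9, the gene of integrin alpha 9, had 17.3-fold and 13.6-fold, with a site on chromosome 9 (118583695 to 118584436). The products of these genes act outside the cell, in endosomes, in cilia and in adhesion.

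The pairs not yet described lay between 5.90-fold and 19.7-fold. Heatr7b2 had 15.6-fold and 15.1-fold, and E130203B14Rik had 15.1-fold and 13.4-fold. The largest ratios between the experiments were at Ntrk2, the receptor of brain-derived neurotrophic factor named here from its description (5.90-fold against 14.5-fold), and at Ppp1r9a, which encodes the actin-binding protein neurabin (19.7-fold against 9.27-fold). Akirin2, a nuclear cofactor of innate immune genes, had 11.2-fold and 12.7-fold, Galnt9, an O-glycosylation enzyme gene, had 12.5-fold and 13.4-fold, and Fam71f1 had 10.4-fold and 8.42-fold. The potassium channel gene Kcnt2 had 10.3-fold and 12.6-fold, and the chloride channel gene Ano2, named from its description, had 13.3-fold and 12.1-fold. Npas3, a bHLH-PAS transcription factor gene, had 9.27-fold and 7.36-fold.

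Of the 21 pairs, 14 had the higher fold in experiment 1 and 7 in experiment 2, and in 15 the folds were within 1.5 times of each other. Across the pairs Pearson's r of the log2 folds was 0.648 and Spearman's rank correlation was 0.456. These describe 21 sites that had to be called in both lists and that share their libraries. The FDR was 5% or lower at 8 of the 21 in experiment 1 and 100% at 18 of the 21 in experiment 2. The share of all gene-body sites with an FDR of 100% was 70 of 106 in experiment 1 (66.0%, interval 56.2 to 74.96, against 78.7% over all sites) and 166 of 170 in experiment 2 (97.6%, against 96.8%).

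**Figure D2:**
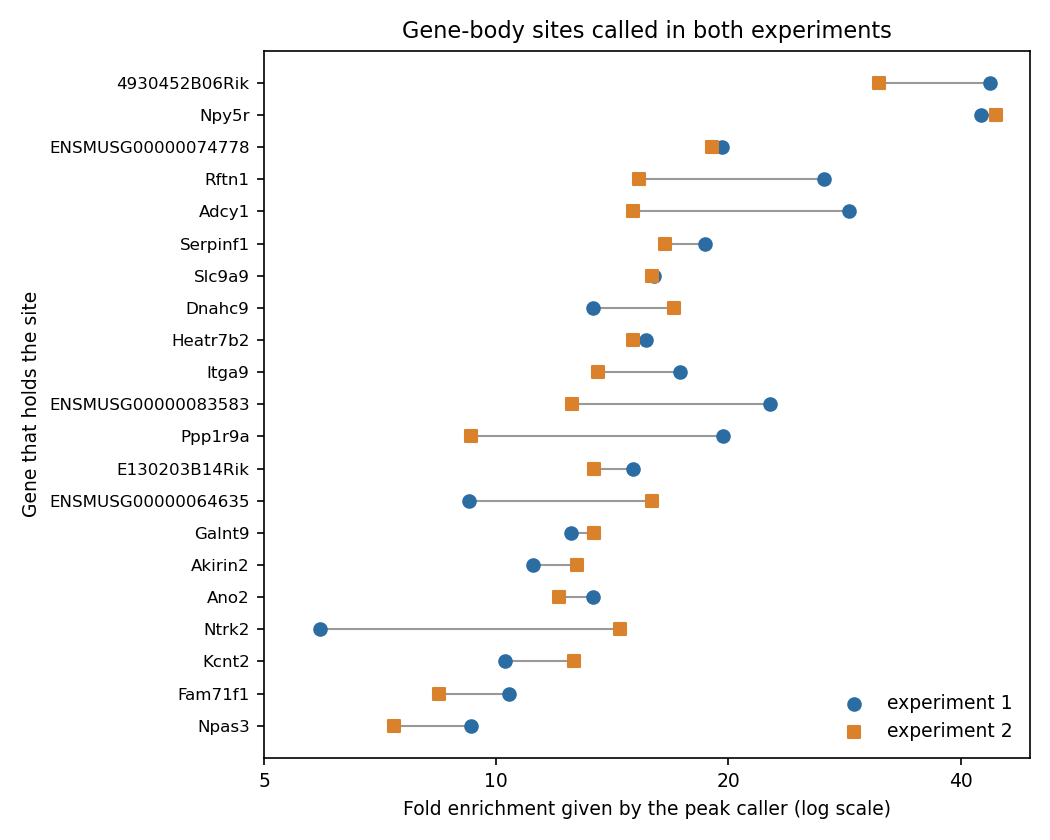
Fold enrichment (x axis, log scale) of the 21 gene-body sites that overlap between the lists, ordered by mean rank, with the gene on the y axis; circles are experiment 1, squares are experiment 2 and a line joins a pair. 4930452B06Rik and Npy5r lie above 30-fold in both experiments, and Ntrk2 (5.90 and 14.5) and Ppp1r9a (19.7 and 9.27) have the longest lines.

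Sites found in 1 list alone were lower in fold. Among gene-body sites of experiment 1 the 21 shared ones had a median fold of 15.6 and the 85 unshared ones of 7.16 (range 3.59 to 19.98). In experiment 2 the medians were 14.5 at the 21 shared and 9.64 at the 149 unshared sites (range 1.89 to 15.9). The strongest unshared sites of experiment 1 lay in Amy2a3, a pancreatic amylase gene of a family of near-identical copies (chromosome 3 from 113118699 to 113118998, 19.98-fold), and Gm1661 (17.8-fold). In experiment 2 they lay in Tmx3, a thioredoxin-related protein of the endoplasmic reticulum (15.9-fold), and Nhej1, a factor of DNA end joining (14.5-fold). Absence from the other list was not tested against that list's depth.

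The strength of gene-body sites was then set beside that of all sites. In experiment 1 the median fold was 7.99 at gene-body sites (interval 7.12 to 9.42) and 7.17 over all sites, and the median number of tags was 27 against 21. The median fold of experiment 2 was 9.94 (interval 9.56 to 10.7) against 10.0, and the median number of tags was 11.5 against 11. An FDR of 5% or lower was given to 17 of the 106 gene-body sites of experiment 1 (16.0%, interval 9.63 to 24.4), against 8.22% over all sites and 44 of 636 (6.92%, interval 5.07 to 9.18) among those outside gene bodies or at small RNA genes. The intervals of the gene-body sites and of the others did not overlap, and the difference was not tested. Without the sites of Klf6, a setting chosen after seeing the data, the share was 15 of 103 (14.6%, interval 8.39 to 22.9). This interval overlapped that of the other sites. The intervals cover counting error only and sites of 1 list are not replicates. Whether intervals overlap is therefore no test, and no role of Klf6 in the difference can be read from it. In experiment 2 the count was 0 of 170, as it was over all its sites (0%). Beside Klf6 and 8 shared pairs, the sites of low FDR included Gpc6 (4%), Zfp704 (1.92%) and ENSMUSG00000050377, described as the interleukin 31 receptor A (4.29%).

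The position of the summit along the gene was computed as the distance from the gene start over the gene's length. The median was 37.0% of the gene length in experiment 1 (interval 31.0 to 41.6, quartiles 22.7 and 53.6) and 27.7% in experiment 2 (interval 24.6 to 32.8, quartiles 12.2 and 50.9). Sites in the first 50% of the gene numbered 74 of 106 (69.8%, interval 60.1 to 78.4) and 125 of 170 (73.5%, interval 66.2 to 79.99). The authors' lists assigned each site to the gene with the nearest start, so a site far along a gene is lost to it wherever another gene starts closer. The excess in the first 50% of the gene therefore cannot be told apart from the way genes were assigned. Of the sites outside their assigned gene, 9 of 632 in experiment 1 and 14 of 730 in experiment 2 had a summit inside another gene that the lists name, and these counts are lower limits because the lists hold only some of the genes.

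Along the gene the fullest stretches were not the same in the lists. With the gene cut into 10 bins of equal length, the fourth and the fifth bin were the fullest in experiment 1, with 19 and 18 sites, and the first held 10. The first 3 bins of experiment 2 held 30, 29 and 32 sites and the fourth and the fifth held 17 each. The first bin held 9.43% of the sites (interval 4.62 to 16.7) in experiment 1 and 17.6% (interval 12.2 to 24.2) in experiment 2. The fourth held 17.9% (interval 11.2 to 26.6) and 10.0% (interval 5.93 to 15.5). These intervals overlap, and the difference was not tested. The last bin held 4 and 5 sites. In genes of 100 kb or more the first 50% of the gene held 44 of 54 sites (81.5%, interval 68.6 to 90.7) and 79 of 100 (79.0%, interval 69.7 to 86.5), and in shorter genes it held 30 of 52 (57.7%, interval 43.2 to 71.3) and 46 of 70 (65.7%, interval 53.4 to 76.7). A summit before the gene start was found at 3 sites of experiment 1 (Ndufs7, Sacm1l and Olfr792) and 1 of experiment 2 (ENSMUSG00000074566).

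**Figure D3:**
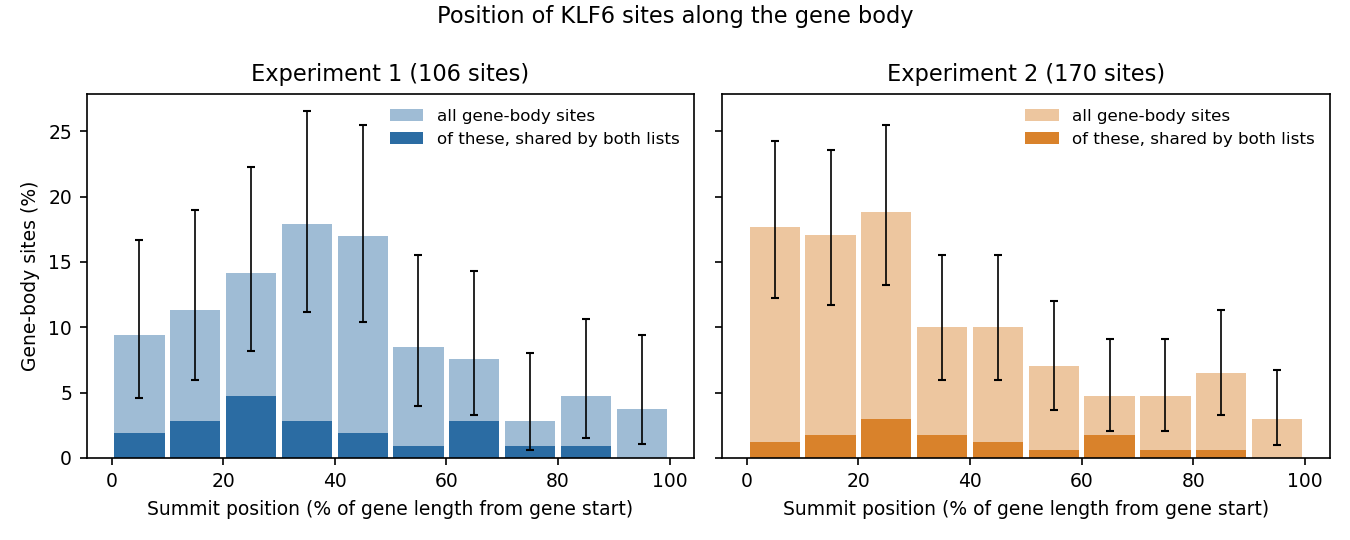
Share of gene-body sites (y axis, percent of the list's gene-body sites) in each of 10 equal bins of the gene body, from the gene start at 0 to the end at 100 (x axis, percent of gene length), with experiment 1 on the left and experiment 2 on the right. Pale bars are all gene-body sites, dark bars are those found in both lists and error bars are 95% exact binomial intervals; the fourth bin is the fullest in experiment 1 (17.9%) and the third in experiment 2 (18.8%), and the 3 sites and 1 site before a gene start are not drawn.

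In base pairs the summits lay a median of 32.9 kb from the gene start in experiment 1 and 32.4 kb in experiment 2. Within 1 kb of the start lay 9 of 106 sites (8.49%, interval 3.96 to 15.5) and 7 of 170 (4.12%, interval 1.67 to 8.30). Within 20 kb lay 41 (38.7%) and 64 (37.6%). The farthest summit was 1028 kb into Csmd1, a gene of 1642 kb for a complement regulator, and the farthest of experiment 2 was 595 kb into Opcml, which encodes a neuronal adhesion molecule; both genes are named from their descriptions.

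Fold was read along the gene in 3 equal parts. In experiment 1 it had a median of 8.06 in the first part (49 sites, with those before the start), 7.83 in the middle part (45) and 6.87 in the last part (12). In experiment 2 the medians were 9.64 (99), 10.8 (45) and 9.61 (26). Sites found in both lists made up 12 of 49, 7 of 45 and 2 of 12 in experiment 1 and 12 of 99, 6 of 45 and 3 of 26 in experiment 2. Pairs thus occurred in each part of the gene. The pair farthest along was in ENSMUSG00000074778, at 80.6% of the gene length.

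Genes with a site in their body were long. Taken over sites, their median length was 104 kb in experiment 1 (interval 70.8 to 143) and 139 kb in experiment 2 (interval 100.4 to 216). With each gene counted once the medians were 101 and 130 kb. Genes assigned to sites outside gene bodies, without small RNA genes, had medians over sites of 3.44 kb (interval 1.90 to 5.24) and 4.31 kb (interval 2.31 to 6.66). The rule bears on this difference, since a longer gene covers more sequence, and it was not corrected for. Genes of 500 kb or more held 16 of the 106 sites (15.1%) and 26 of the 170 (15.3%), and genes under 10 kb held 16 (15.1%) and 7 (4.12%). Shared pairs fell in genes from 0.098 to 820 kb, and their median gene length was 115 kb.

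**Figure D4:**
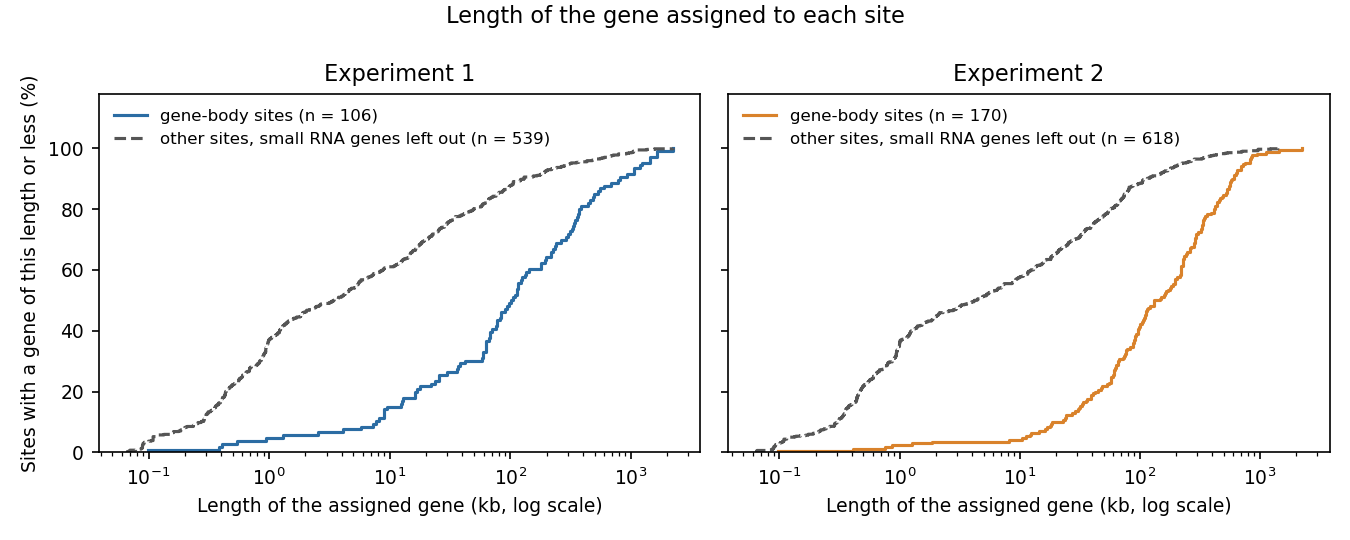
Cumulative share of sites (y axis, percent) by the length of the assigned gene (x axis, kb, log scale), with experiment 1 on the left and experiment 2 on the right. Solid lines are gene-body sites (106 and 170) and dashed lines are sites outside gene bodies without small RNA genes (539 and 618); the medians are 104 and 139 kb for gene-body sites against 3.44 and 4.31 kb.

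Of the 5 longest genes, Gpc5 had sites in both lists and Dmd, Cntnap2, Csmd1 and Tenm2 in 1 list. Dmd, the dystrophin gene of 2257 kb, had a site 17.3 kb from its start with 11 tags at 12.7-fold in experiment 2. Cntnap2, of 2241 kb, which encodes an adhesion protein of axons, had a site 403 kb from its start with 20 tags at 5.12-fold in experiment 1. Tenm2, a teneurin gene of 1229 kb named from its description, had 33 tags at 6.41-fold in experiment 1. The FDR was 100% at Dmd, Cntnap2 and Tenm2. Across the sites, gene length and fold had a Spearman rank correlation of -0.12 over 106 sites in experiment 1 and 0.073 over 170 in experiment 2. This is a description over sites that share their libraries.

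Genes on the plus strand held 62 of the 106 sites (58.5%, interval 48.5 to 68.0) and 97 of the 170 (57.1%, interval 49.3 to 64.6). Among sites outside gene bodies or at small RNA genes, 48.7% (interval 44.8 to 52.7) and 52.7% (interval 49.0 to 56.3) were assigned to plus-strand genes. Both intervals of the gene-body sites overlapped those of the other sites, and that of experiment 1 and that of experiment 2 both held 50%. Among the 21 pairs 14 were in plus-strand genes.

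Few genes were hit more than once within a list. In experiment 1, 4 of 101 genes held 9 sites, and in experiment 2, 5 of 165 genes held 10. Beside Klf6, with 3 sites within the span of 1 gene of 8.90 kb, each such gene had 2. The glypican genes Gpc5 and Gpc6 on chromosome 14, which encode heparan sulfate proteoglycans of the cell surface, were among them. Gpc6 had sites 36.0 kb apart at 14.4-fold and 13.0-fold in experiment 1, with 35 and 46 tags, and none in experiment 2. Gpc5 had sites 96.5 kb apart at 6.66-fold and 6.62-fold in experiment 1, and a site at 10.4-fold in experiment 2 that lay 112 kb from the nearest of them. Csmd1 had sites 133 kb apart at 5.78-fold and 5.42-fold in experiment 1.

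In experiment 2 the genes with 2 sites were Npas3, Arhgap15, Tshz1, Olfm3 and Prickle2. In Npas3 the shared site 22.1 kb from the start was joined by a site 368 kb from it at 12.7-fold. Arhgap15, which encodes an inactivator of the GTPase Rac, had 7.93-fold and 13.6-fold at sites 59.9 kb apart. Tshz1, a zinc finger factor gene, had 12.7-fold and 12.1-fold at sites 119 kb apart, Olfm3, an olfactomedin gene, had 10.5-fold and 7.73-fold at 112 kb, and Prickle2, of the planar cell polarity pathway, had 9.56-fold and 9.64-fold at 71.9 kb. Tshz1, Olfm3 and Prickle2 are named from their descriptions. The FDR was 100% at all 10 sites of these genes.

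Counted by gene, the lists named 242 genes, and 24 were in both (23.8% of the 101 of experiment 1 and 14.5% of the 165 of experiment 2). For 21 of the 24 the sites overlapped. For the other 3 they did not. In Prim2, which encodes the large subunit of DNA primase, the sites lay 1.87 kb apart (5.34-fold and 9.73-fold). In Gpc5 they lay 112 kb apart and in Rit2, a neuronal small GTPase gene, 132 kb apart (5.26-fold and 9.64-fold). A gene in common was a site in common in 21 of 24 cases. The same counts were not made for the genes assigned to all sites of the lists. Nothing particular to gene-body sites can therefore be read from them.

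The genes were then read by function, from lists of named genes. Of the sites, 74 of 106 and 106 of 170 had a gene symbol, and some other genes were named from their descriptions, so the counts are lower limits. Of 447 listed genes, 35 had a gene-body site in either experiment (7.83%), 18 in experiment 1 and 21 in experiment 2. No member of the lists of reported KLF6 targets (29 genes), hepatocyte identity and metabolism (34) or cell cycle, p53, apoptosis and autophagy (41) had one in either experiment. The share of 7.83% over all listed genes includes these small lists. Their absence was not tested and cannot be read as a result about these groups. Listed genes differ in length, which was not corrected for, the lists were drawn up with earlier results of these data known, and no test of a list was made.

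Ion channels and neurotransmitter receptors held the most, 14 of 68 genes (20.6%, against 7.83% of all listed genes), with 7 in experiment 1 and 9 in experiment 2. The 7.83% includes these 14 genes, and both shares come from lists drawn up with earlier results of these data known. No excess over all genes can be read from them. Npy5r and Kcnt2 were in both experiments. Glutamate receptor genes were Grm7 in experiment 1 (5.89-fold) and Grm5, Grm8 and Grik2 in experiment 2 (11.2-fold, 11.8-fold and 12.7-fold). Gabra2, a GABA receptor gene, had 5.82-fold in experiment 1. Channel genes included Kcnc2 in experiment 1 (5.26-fold) and Kcnh7, Trpm3 and Ryr3, a calcium release channel, in experiment 2 (7.96-fold, 8.60-fold and 8.03-fold). Htr1f, a serotonin receptor gene, had 5.56-fold in experiment 2. Apart from Npy5r, the sites named here lay between 5.26-fold and 12.7-fold.

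Synaptic adhesion and axon guidance genes held 7 of 81 (8.64%, against 7.83% of all listed genes). They were Cntnap2, Cntnap4, Csmd1, Lrrtm4 and Tenm2 in experiment 1, between 5.12-fold and 7.12-fold, and Nlgn1, a neuroligin gene, and Opcml in experiment 2, both at 9.56-fold. None was in both experiments. Cadherins and glypicans held 3 of 39 (7.69%), which were Gpc5, Gpc6 and, in experiment 2, the N-cadherin gene Cdh2 (11.2-fold). Signalling enzymes and scaffolds held 3 of 47 (6.38%). They were Prkg1, a cGMP-dependent kinase gene (4.83-fold in experiment 1), Exoc4, of the exocyst (6.60-fold in experiment 2), and Arhgap15.

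Regulators of transcription and chromatin held 3 of 50 (6%, against 7.83% of all listed genes). They were Npas3, Zfhx4 (7.94-fold in experiment 2) and Rbfox1, a splicing regulator (11.8-fold in experiment 1). Of the KLF and SP family, 2 of 26 (7.69%) had a site, Klf6 itself and Sp4 (9.03-fold in experiment 2, 27.1 kb from the start). TGF-beta, matrix and angiogenesis genes held 3 of 47 (6.38%), all in experiment 2. They were Smad2, a signal transducer of TGF-beta (9 tags at 10.3-fold), Vegfc, a lymphatic growth factor gene (15 tags at 10.8-fold, near the gene's end at 93.3% of its length), and Thsd7b (10 tags at 9.07-fold). Among olfactory, vomeronasal and taste receptor genes, found by symbol and not among the 447, Olfr792 alone had a site.

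Chromosomes 6 and 13 held the most gene-body sites of experiment 1, with 12 each of 75 and 42 sites. These were 16.0% and 28.6% of the chromosomes' sites, against 14.3% over the list. In experiment 2 chromosomes 6 and 3 held the most, with 16 and 14 of 71 sites each (22.5% and 19.7%, against 18.9% over the list). The 12 sites on chromosome 13 in experiment 1 included the 3 of Klf6. Chromosome 7 held 3 and 2. No correction was made for the number or length of the genes on a chromosome.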

How the data were processed

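The data were the authors' 2 deposited lists of annotated sites, 1 per experiment. The submitters' processing notes list MACS 1.3.6 and build mm9 without the steps they served. The aligner and its parameters were not given in the sources used here. Per the file headers, each site has a tag count, in whole numbers, and which library was counted is not stated. The deposited score is 10 times the negative log10 of the peak caller's p-value. The deposited fold enrichment is the peak caller's ratio. The deposited FDR is a percent. The authors assigned each site to the Ensembl gene with the nearest start. These values were used to describe and rank sites within a list.

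Relative position was the deposited distance over gene end minus gene start. Lists were overlapped by at least 1 bp. Shares have exact Clopper-Pearson and medians order-statistic intervals at 95%, which cover counting error only. With 1 sample per group no test across samples was possible, and the functions written for this were tested on simulated data. Python 3.11.15, pandas 2.3.3 and scipy 1.17.1 were used. Of 70 and 104 distinct gene symbols, 70 and 102 matched RefSeq (GRCm38.p6), which served only for names and promoter sequence; 18 descriptions were matched to symbols by hand.

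Members and gene lists were chosen with earlier results of these data known. Named genes were the shared pairs, the 5 highest folds of each list, genes with more than 1 site (at most 8), the 5 longest and 3 shortest genes, sites over a gene start or end, list members and Klf6; others were named after their values were seen. Alternatives concerned the position labels, small RNA genes, overlap, score, the site's middle and counting genes once. Some list members are counted but not reported by name here.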

Additional observations from a re-analysis of the deposited data

How the results depend on the processing

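Of 55 alternatives, 46 were planned and 9, which concern Klf6, the FDR and genes other than the assigned one, were chosen after seeing the data. In 43 the count stayed within 1.5 times of its value or the share or median within its 95% interval, and 12 moved. Among the higher-scoring 50% of sites, gene-body sites numbered 68 in experiment 1 and 87 in experiment 2. Fewer sites entered these counts, and the share of gene-body sites among them was not computed. In this setting the shares found again were 29.4% and 21.8% and the median folds 10.8 and 11.15. In each list 2 genes had more than 1 site. With at least 50% of both sites in common, which unequal widths make harder to meet, the shares found again were 8.49% and 5.29%. Among sites with an FDR under 100% they were 47.2% of 36 and 75% of 4, and the cause was not tested. These shares were not computed over all sites of the lists under the same settings. Whether the rise is particular to gene-body sites was therefore not tested. Position along the gene, gene length and strand moved beyond their intervals under none of the alternatives run. No paired analysis was possible because there was 1 sample per group and no test. Depth is unknown, so sites missing from a list were not weighed against it, and an FDR of 100% applied to 70 of 106 and 166 of 170 gene-body sites.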
